A study of Mus musculus with 18 samples.

Results

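The 9 genes described here encode ligands, receptors, signal transducers and a target of the transforming growth factor beta (TGF-β) pathway: Tgfb1, Tgfb2 and Tgfb3, Tgfbr1 and Tgfbr2, Smad2, Smad3 and Smad7, and Tgfbi. The rule that chose them names the genes and uses no measured value, although earlier results of these data were known when it was made. They are 9 of the 54838 genes of a table of RNA-sequencing read counts. The table covers 18 libraries of mouse neural cells in 6 conditions with 3 replicates in each. Neural stem cells came from the ventricular zone of wild-type C57BL/6J mice at embryonic day 14, each isolation from 1 brain, and were kept proliferating as neurospheres (NSPs) with EGF at 20 ng/ml. They were differentiated towards astrocytes in medium with 10% serum. Cells were collected after 24 h or 72 h, either untreated or with tumor necrosis factor (TNF) at 50 ng/ml, and after 1 week without TNF. The comparisons address how the pathway genes change as NSPs differentiate and whether TNF, an inflammatory cytokine, alters their expression.

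TGF-β ligands are secreted in a latent complex and become active when they are released from it by integrins, thrombospondin or proteases. The active ligand binds the type II receptor, which phosphorylates the type I receptor. The type I receptor phosphorylates Smad2 and Smad3, which join Smad4, enter the nucleus and regulate target genes, among them the inhibitory Smad7, which feeds back on the receptors. In the brain the pathway is known for roles in glial differentiation and in the response of astrocytes to injury. All differentiated cultures had serum, and the proliferation medium of the NSPs is described with B27 and EGF and without serum. NSPs also grew as free-floating spheres, and the differentiated cells on plates coated with poly-L-ornithine. Differentiation, the change of medium and the attachment to plates therefore cannot be told apart.

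Levels are given as CPM, read counts relative to the total of the library after scaling with edgeR's TMM factors, and means are given ± SD over 3 replicates. Changes are log2 fold changes with their standard error (SE). Adjusted p-values come from edgeR's quasi-likelihood test over all 20067 genes that passed a filter on low counts, with Benjamini-Hochberg adjustment, and a gene is called higher or lower where the adjusted p is under 0.05. The paper states for its data in general, unless noted otherwise, that they come from 3 or more independent biological experiments. The labels do not say whether the replicates here are separate cultures or animals, so the p-values measure the spread between these samples, which may be technical. The measurements are of bulk RNA, in which fewer cells of a type and less RNA per cell cannot be told apart.

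Library totals ranged from 12509693 to 22549627 counts. In 3 groups, NSPs and both TNF groups, replicate 1 stood apart from its replicates, with Pearson correlations of log2 CPM from 0.974 to 0.978, against 0.990 to 0.993 between replicates 2 and 3 of the same group. Gfap, the intermediate filament of astrocytes, had 27.1 ± 13.7 CPM in NSPs, 899 ± 44.6 CPM at 24 h, 2432 ± 673 CPM at 72 h and 63.4 ± 15.9 CPM at 1 week. With TNF it had 977 ± 777 CPM at 24 h and 489 ± 461 CPM at 72 h. The sample titles name astrocytes for all groups, NSPs included. The summed level of 9 astrocyte markers ranged from 5180 to 5431 CPM in NSPs, from 5912 to 8329 CPM at 72 h, from 3617 to 5148 CPM at 72 h with TNF and from 2852 to 3331 CPM at 1 week. At 72 h against NSPs, 3 of the 9 were higher (28.1% of all tested genes) and 3 lower (27.2%), with a median log2 fold change of -0.35. Means rose from NSPs to 72 h for Gfap, Aqp4, Gja1 and Sox9. They fell for Slc1a3 (3050 to 2203 CPM), Aldoc (1181 to 581 CPM), Slc1a2, S100b and Aldh1l1. All 5 proliferation markers were lower at 24 h than in NSPs, and their sum ranged from 1364 to 2200 CPM in NSPs and from 97.4 to 100.9 CPM at 24 h. Of 14 microglia and macrophage markers, 10 were under 1 CPM in every library, Cx3cr1, Tmem119 and Aif1 among them. The sum of the 14 was 18.6 CPM in replicate 1 of 24 h with TNF and 12.7 CPM in replicate 1 of 72 h with TNF, and at most 8.87 CPM in any other library. Of these sums, 15.3 and 9.58 CPM were Cd68, a lysosomal protein, and C1qa, C1qb and C1qc were at 0 in every library. The sum of 8 markers of the oligodendrocyte lineage, mostly Olig1 and Olig2, ranged from 1061 to 1367 CPM in NSPs, from 376 to 456 CPM at 24 h, from 82.4 to 91.7 CPM at 72 h and from 111 to 129 CPM at 1 week. With TNF it ranged from 165 to 396 CPM at 24 h and from 144 to 185 CPM at 72 h, where it lay above the untreated cells with no overlap. The sum of 6 endothelial markers ranged from 5.68 to 6.87 CPM at 72 h and from 1.80 to 3.07 CPM at 72 h with TNF. That difference lay in Kdr, with means of 5.76 and 1.20 CPM, while Pecam1 and Tek had higher means with TNF and Cdh5, Cldn5 and Tie1 were near 0. The sum of 6 pericyte and mural markers ranged from 93.4 to 152 CPM in NSPs and from 28.6 to 45.3 CPM at 72 h. Nearly all of it was Notch3, with means of 131 and 33.4 CPM, while Rgs5 (0.0591 and 2.49 CPM) and Pdgfrb (0.0395 and 0.311 CPM) had higher means at 72 h. Among 8 neural stem cell markers, 2 were higher (27.2% of all tested genes) and 5 lower (25.5%) at 24 h than in NSPs. Their median log2 fold change was -0.745. Means of Hes5 fell from 72.5 to 7.69 CPM and of Egfr from 953 to 427 CPM. Those of Vim rose from 1928 to 2844 CPM and of Pax6 from 56.7 to 114 CPM. The part of all these markers in the results below was not tested.

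Promoter sequences are shown for 1 ligand, 1 receptor and 1 transducer, each with calls kept under every setting in the results that follow. They are the 250 bases before the start of Tgfb2, a ligand, of Tgfbr2, the type II receptor, and of Smad3, a signal transducer, from RefSeq on GRCm38.p6, read 5′ to 3′ on the strand of the gene, which is the minus strand for all 3. Capitals mark each match to CAGAC, the Smad binding element, and to TATAAA, the TATA box, both searched on both strands.
Tgfb2, chr1:186705990-186706239: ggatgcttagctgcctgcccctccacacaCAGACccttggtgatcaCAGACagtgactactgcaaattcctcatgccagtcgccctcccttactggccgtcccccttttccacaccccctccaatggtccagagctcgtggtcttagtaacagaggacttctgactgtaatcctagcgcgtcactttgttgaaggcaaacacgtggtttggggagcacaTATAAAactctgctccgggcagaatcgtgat
Tgfbr2, chr9:116175364-116175613: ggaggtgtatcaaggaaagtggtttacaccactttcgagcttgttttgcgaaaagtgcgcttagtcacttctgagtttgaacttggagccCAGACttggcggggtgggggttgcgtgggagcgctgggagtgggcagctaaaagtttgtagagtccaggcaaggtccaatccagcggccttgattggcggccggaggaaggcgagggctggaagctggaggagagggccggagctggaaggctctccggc
Smad3, chr9:63757995-63758244: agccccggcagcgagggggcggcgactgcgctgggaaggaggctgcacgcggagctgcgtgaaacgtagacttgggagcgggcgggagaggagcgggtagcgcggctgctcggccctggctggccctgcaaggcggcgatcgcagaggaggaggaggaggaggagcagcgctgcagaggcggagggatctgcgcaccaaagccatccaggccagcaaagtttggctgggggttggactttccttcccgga
The Tgfb2 window held CAGAC at 221 and 204 bases before the start and TATAAA at 31 bases before it. The Tgfbr2 window held CAGAC at 160 bases, and the Smad3 window held neither motif. CAGAC was found in 42.2% and TATAAA in 12.4% of 32851 promoter windows of the same length, so a match is common and describes only the letters. TGANTCA, an AP-1 element present in 6.75% of all windows, was in none of the windows of the 6 members found in RefSeq's table. An NF-κB consensus, added after the data were seen and present in 7.25% of all windows, was found in that of Tgfb1, at 140 bases, and in no other member's window. Promoter sequences of Tgfb3, Smad2 and Smad7 were not used here.

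Per length of the gene's exons, the transducer Smad3 had the highest mean level over the 18 libraries with 13.3 RPKM, followed by the type I receptor Tgfbr1 with 9.25 RPKM and Smad2 with 5.43 RPKM. Tgfb3 had a mean of 4.79 RPKM, Tgfbr2 of 3.24 RPKM, Tgfb2 of 2.90 RPKM and Smad7 of 1.56 RPKM. Tgfb1 and Tgfbi were near the limit of detection, with 0.0670 and 0.0663 RPKM. The order depended on the condition. In NSPs the group mean of Tgfbr1, 12.6 RPKM, was above that of Smad3, 9.99 RPKM, and at 72 h Tgfbr2, at 4.42 RPKM, was above Tgfb3, at 2.23 RPKM. The group means ranged from 4.69 to 7.31 RPKM for Smad2 and from 2.23 to 7.75 RPKM for Tgfb3, and from 1.70 to 4.42 RPKM for Tgfbr2 and from 1.007 to 4.35 RPKM for Tgfb2. Among the ligands, Tgfb1 was thus far below Tgfb2 and Tgfb3. Tgfb1 and Tgfbi did not pass the filter on low counts, and the other 7 genes were tested.

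**Figure D1:**
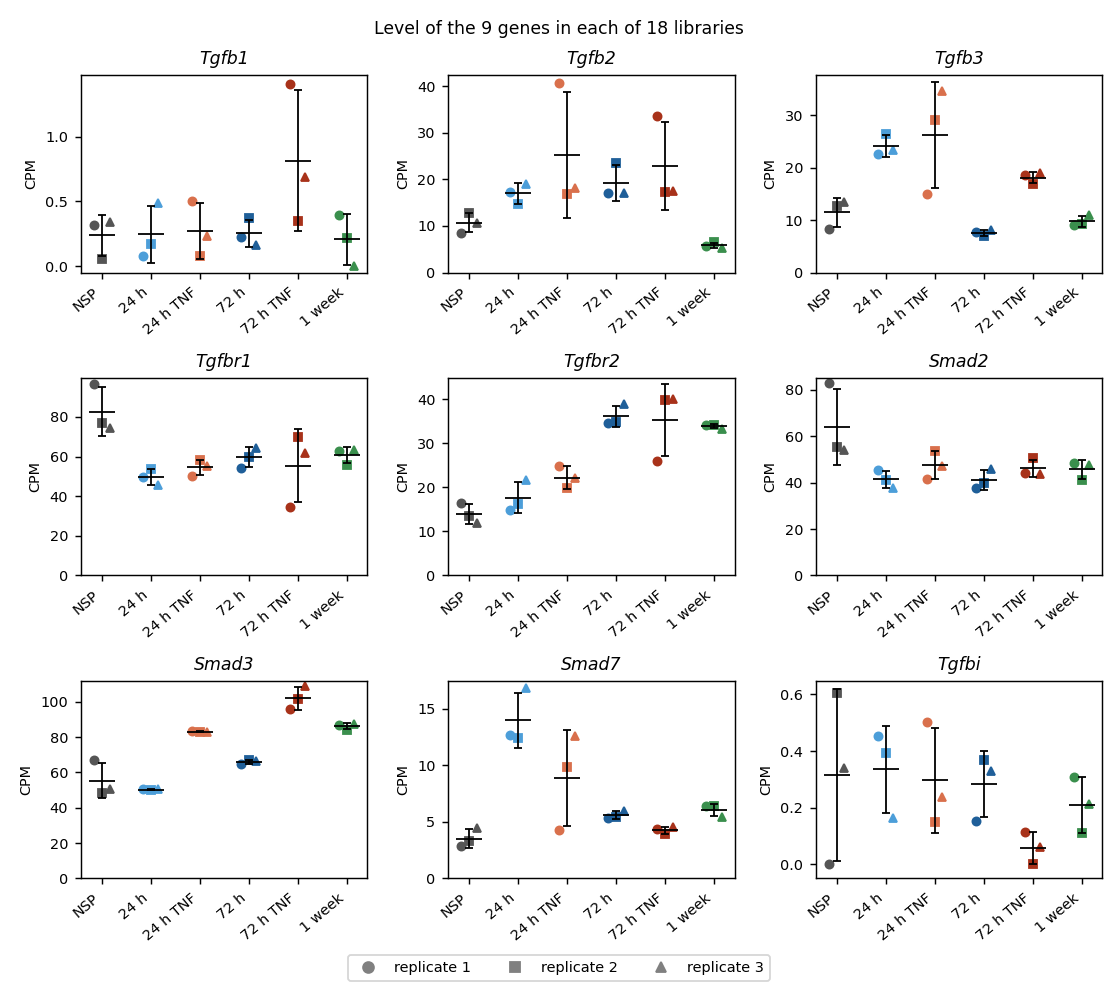
Expression of the 9 genes in CPM (vertical axes, linear) in each of the 18 libraries, by condition. Symbols are replicates, horizontal bars are means and error bars are SDs of 3 replicates. Smad3 lies between 82.9 and 83.5 CPM in 24 h with TNF and between 49.9 and 50.5 CPM at 24 h without it, and Tgfb2 is lowest at 1 week.

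During differentiation without TNF, the genes fell into different time courses. At 24 h Tgfb3 and Smad7 were up-regulated and Tgfbr1 and Smad2 were down-regulated compared to NSPs, so 2 of the 7 tested genes were higher, beside 27.2% of all tested genes, and 2 lower, beside 25.5%. At 72 h, 2 genes were higher (28.1% of all tested genes) and 3 lower (27.2%). At 1 week, 3 genes were higher (29.6%) and 3 lower (29.1%). These 3 comparisons share the NSP libraries, and the shares of all genes that changed were so large that the counts of the 7 genes do not stand apart from them. Between 24 h and 72 h, Tgfbr2 and Smad3 rose (12.2% of all tested genes were higher), and Tgfb3 and Smad7 fell (12.6% were lower). Between 72 h and 1 week, 1 gene was higher (2.68%), Smad3, and 1 was lower (3.96%), Tgfb2.

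With TNF, 5 of the 7 genes were higher at 24 h than in NSPs (28.2% of all tested genes) and 2 were lower (26.3%). At 72 h with TNF, 4 were higher than in NSPs (31.7%) and 2 lower (30.1%). Between the TNF groups, from 24 h to 72 h, Tgfbr2 rose (5.38% of all tested genes were higher) and Smad7 fell (7.93% were lower). Against untreated cells of the same time, TNF raised 1 of the 7 genes at 24 h, Smad3, beside 2.18% of all tested genes, and lowered none, beside 1.32%. At 72 h TNF raised 2 genes, Smad3 and Tgfb3, beside 4.35% of all tested genes, and lowered none, beside 5.21%. At an unadjusted p under 0.05 edgeR put Smad7 lower with TNF at 24 h and no gene of the 7 lower at 72 h, and DESeq2 called none of the 7 lower at either time.

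**Figure D2:**
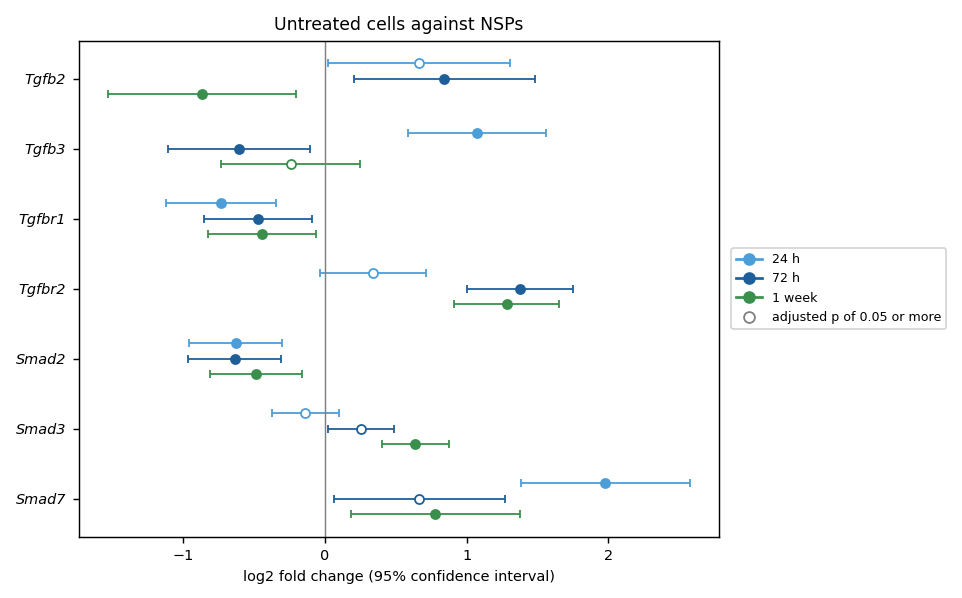
Log2 fold change of the 7 tested genes against NSPs at 24 h, 72 h and 1 week without TNF (horizontal axis). Points are estimates of edgeR's fit from 3 replicates a group, lines are 95% confidence intervals, and open points have an adjusted p of 0.05 or more. Smad7 has the largest estimate of these genes at 24 h, at 1.98, and Tgfbr2 at 72 h, at 1.38.

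Tgfb1 (ENSMUSG00000002603, chr7:25687002-25705077 on GRCm38, plus strand) encodes the ligand for which the family is named. It had 102 counts in all 18 libraries together. Its counts were 5, 1 and 6 in NSPs, 1, 3 and 6 at 24 h, 3, 6 and 3 at 72 h, and 9, 4 and 0 at 1 week. With TNF they were 8, 1 and 4 at 24 h and 25, 6 and 11 at 72 h. The 3 libraries of 72 h with TNF held 1.41, 0.348 and 0.688 CPM, above the 3 NSP libraries, and overlapped the untreated libraries of 72 h, where replicate 2 also had 6 counts. With a lower filter of at least 5 counts in total, added after the data were seen, the log2 fold change for TNF at 72 h was 1.67 (SE 0.70) with an adjusted p of 0.187. Without any filter it was 1.68 with an adjusted p of 0.0463. Replicate 1 held 25 of the 42 counts at 72 h with TNF.

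Tgfb2 (ENSMUSG00000039239, chr1:186622792-186705989, minus strand) encodes a second ligand, and it was at its lowest at 1 week. Its levels were 8.57, 12.7 and 10.7 CPM in NSPs, 17.2, 14.7 and 19.0 CPM at 24 h, and 17, 23.6 and 17 CPM at 72 h. At 1 week the replicates had 5.74, 6.47 and 5.28 CPM, below every other library of the series. Compared to 72 h, Tgfb2 fell by 1.71 on the log2 scale by 1 week (SE 0.32, adjusted p = 0.00232), to 0.305 times the level, and the call was kept under every setting. It was higher at 72 h than in NSPs, by 0.84 (SE 0.30, adjusted p = 0.0250), with no overlap between the groups. That call was lost without 72 h replicate 2 (adjusted p = 0.109), NSP replicate 1 (0.0928) or NSP replicate 3 (0.0567). At 24 h the change from NSPs was 0.66 (SE 0.31, adjusted p = 0.0759), and it was called without 24 h TNF replicate 1 (adjusted p = 0.0258) or 72 h TNF replicate 1 (0.0449), without a filter on low counts (0.0104) and in a fit of only the groups compared (0.0130). At 1 week Tgfb2 was below NSPs, with a log2 fold change of -0.87 (SE 0.32, adjusted p = 0.0246). This call was lost without 1 week replicate 1 (adjusted p = 0.0600), 1 week replicate 3 (0.0694) or NSP replicate 2 (0.0923), and with at least 10 counts required in every library (0.0598).

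With TNF, 1 library set the mean of Tgfb2 at each time. Its levels were 40.7, 16.8 and 18.2 CPM at 24 h with TNF and 33.6, 17.2 and 17.5 CPM at 72 h with TNF, so replicate 1 was high in both groups and the other replicates lay within the range of the untreated cells of that time. The log2 fold change for TNF was 0.58 at 24 h (SE 0.30, 95% confidence interval -0.05 to 1.21, adjusted p = 0.425). At 72 h it was 0.25 (SE 0.30, interval -0.37 to 0.87, adjusted p = 0.638), and without 72 h TNF replicate 1 it was -0.14. Without 24 h TNF replicate 1 the value at 24 h was 0.03. Against NSPs Tgfb2 was higher in both TNF groups, by 1.24 at 24 h (SE 0.30, adjusted p = 0.00226) and by 1.09 at 72 h (SE 0.30, adjusted p = 0.00453). Without replicate 1 of the TNF group concerned these values were 0.68 (adjusted p = 0.0375) and 0.73 (adjusted p = 0.0446). Its exons overlap 124 bases of an antisense gene, Gm29491, which had 70 counts in total.

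Tgfb3 (ENSMUSG00000021253, chr12:86056745-86079041, minus strand) encodes the third ligand, and it rose early and fell again. Its levels were 8.31, 12.6 and 13.5 CPM in NSPs and 22.7, 26.5 and 23.3 CPM at 24 h. At 72 h they were 7.72, 6.93 and 8.03 CPM, and at 1 week 9.05, 9.21 and 11 CPM. All 24 h libraries thus lay above all libraries of the other untreated groups. The rise from NSPs to 24 h was 2.10-fold (log2 fold change 1.07, SE 0.23, adjusted p = 8.78e-04), and the fall from 24 h to 72 h was 1.68 on the log2 scale (SE 0.24, adjusted p = 4.82e-05), both kept under every setting. The level at 72 h was below that of NSPs, with a log2 fold change of -0.61 (SE 0.24, adjusted p = 0.0386). That call was lost on leaving out any 72 h replicate (adjusted p from 0.0571 to 0.111), NSP replicate 2 (0.108), NSP replicate 3 (0.147) or 72 h TNF replicate 1 (0.0524). It was also lost with at least 10 counts required in every library (adjusted p = 0.0757), in a fit of only the groups compared (0.0713) and in the replicate block with 72 h replicate 3 unpaired (0.0938). At 1 week the difference from NSPs was -0.24 (SE 0.23, adjusted p = 0.387) and that from 72 h was 0.36 (SE 0.24, adjusted p = 0.463).

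With TNF, Tgfb3 was higher at 72 h than in untreated cells. At 72 h with TNF its levels were 18.5, 16.8 and 18.9 CPM, all more than any untreated library of 72 h. The difference was 2.39-fold (log2 fold change 1.26, SE 0.24, adjusted p = 0.00180), and it was kept under every setting. At 24 h with TNF the replicates had 15, 29.1 and 34.6 CPM, around the untreated level, with replicate 1 the lowest, and the log2 fold change was 0.12 (SE 0.23, interval -0.36 to 0.59, adjusted p = 0.894). Without 24 h TNF replicate 1 this value was 0.38. The TNF effect at 72 h exceeded that at 24 h by 1.14 on the log2 scale (SE 0.33, interval 0.45 to 1.83), with an unadjusted p of 0.00258 and an adjusted p of 0.168, so the difference between the times did not pass the test. Without a filter on low counts it did (1.16, adjusted p = 0.00619). From 24 h to 72 h with TNF the change was -0.54 (SE 0.23, adjusted p = 0.134), and without 24 h TNF replicate 1 it was called at -0.78 (adjusted p = 0.00569), as it was without replicate 1 of both TNF groups (-0.80, adjusted p = 0.0107).

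Against NSPs, Tgfb3 was higher at 24 h with TNF, by 1.19 (SE 0.23, adjusted p = 3.31e-04). It was also higher at 72 h with TNF, by 0.65 (SE 0.23, adjusted p = 0.0206), and that call was lost without NSP replicate 1 (adjusted p = 0.0991) or 72 h TNF replicate 3 (0.0522). The exons of Tgfb3 overlap 163 bases of Gm37804 and 257 bases of Gm48008 on the opposite strand, which had 113 and 33 counts in total.

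Tgfbr1 (ENSMUSG00000007613, chr4:47353222-47414931, plus strand), the type I receptor, was highest in NSPs. Its levels were 96.7, 76.7 and 74.4 CPM in NSPs, 49.7, 53.8 and 45.5 CPM at 24 h, 54.3, 59.9 and 64.3 CPM at 72 h, and 63.0, 56.0 and 63.2 CPM at 1 week. No library of a differentiated group reached an NSP library. The fall by 24 h was 0.73 on the log2 scale (SE 0.18, adjusted p = 0.00281), and it was kept under every setting. At 72 h the change from NSPs was -0.47 (SE 0.18, adjusted p = 0.0352), lost without 72 h replicate 1 (adjusted p = 0.0978), 72 h replicate 2 (0.0732) or NSP replicate 1 (0.148), and with at least 10 counts required in every library (0.0762). At 1 week it was -0.44 (SE 0.18, adjusted p = 0.0444), lost on leaving out any of 8 libraries, namely any 1 week replicate, NSP replicate 1 or 2, 24 h replicate 1, 72 h replicate 2 or 24 h TNF replicate 3 (adjusted p from 0.0513 to 0.176), with at least 10 counts in every library (0.105), with at least 5 counts in total (0.0577) and in the replicate block with 72 h replicate 3 unpaired (0.0560). The changes from 24 h to 72 h (0.26, SE 0.18, adjusted p = 0.336) and from 72 h to 1 week (0.03, SE 0.18, adjusted p = 0.963) were not called.

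TNF left no called difference in Tgfbr1. With TNF its levels were 50.3, 58.1 and 55.2 CPM at 24 h and 34.6, 70.1 and 61.6 CPM at 72 h, where replicate 1 was the lowest of all 18 libraries. The log2 fold change for TNF was 0.13 at 24 h (SE 0.18, interval -0.25 to 0.52, adjusted p = 0.835). At 72 h it was -0.10 (SE 0.18, interval -0.49 to 0.28, adjusted p = 0.766), and 0.15 without 72 h TNF replicate 1. Against NSPs it was lower at 24 h with TNF, with a log2 fold change of -0.60 (SE 0.18, adjusted p = 0.0102), and at 72 h with TNF, -0.58 (SE 0.18, adjusted p = 0.0109). Both calls were lost without NSP replicate 1 (adjusted p = 0.0508 and 0.0557), and the second also without 72 h TNF replicate 1, where the value was -0.29 (0.0646), and in a fit of only the groups compared (0.0755).

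Tgfbr2 (ENSMUSG00000032440, chr9:116084293-116175360, minus strand), the type II receptor that binds the ligand, rose between 24 h and 72 h and stayed high. Its levels were 16.4, 13.5 and 12.0 CPM in NSPs, 15, 16.3 and 21.8 CPM at 24 h, 34.7, 35.0 and 38.9 CPM at 72 h, and 34.1, 34.2 and 33.4 CPM at 1 week. The libraries of 72 h and 1 week lay above all those of NSPs and 24 h, which overlapped each other. The rise was 2.60-fold from NSPs to 72 h (log2 fold change 1.38, SE 0.18, adjusted p = 2.90e-06) and 2.05-fold from 24 h to 72 h (1.03, SE 0.18, adjusted p = 2.71e-04). At 1 week Tgfbr2 was 1.28 above NSPs (SE 0.18, adjusted p = 5.81e-06) and differed from 72 h by -0.09 (SE 0.17, interval -0.45 to 0.27, adjusted p = 0.839). These 3 calls were kept under every setting. At 24 h the change from NSPs was 0.34 (SE 0.18, adjusted p = 0.115), called without NSP replicate 1 (adjusted p = 0.0483) or 72 h TNF replicate 1 (0.0479) and where every library had to hold 10 counts (0.0384).

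With TNF, Tgfbr2 took a like course. Its levels were 24.8, 19.8 and 22.2 CPM at 24 h with TNF and 26.0, 39.8 and 40.1 CPM at 72 h with TNF, with replicate 1 the lowest of its group at 72 h. The log2 fold change for TNF was 0.33 at 24 h (SE 0.18, interval -0.04 to 0.70, adjusted p = 0.432) and -0.04 at 72 h (SE 0.17, interval -0.39 to 0.32, adjusted p = 0.923). The value at 72 h was 0.15 without 72 h TNF replicate 1. Against NSPs the receptor was higher in both TNF groups, by 0.68 at 24 h (SE 0.18, adjusted p = 0.00362) and by 1.34 at 72 h (SE 0.18, adjusted p = 3.74e-06). Between 24 h and 72 h with TNF it rose by 0.66 (SE 0.17, adjusted p = 0.0160). That call was lost without 24 h TNF replicate 2 or 3, or 72 h TNF replicate 2 or 3 (adjusted p up to 0.0797), and in a fit of only the groups compared (0.0829).

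Smad2 (ENSMUSG00000024563, chr18:76241580-76310963, plus strand), a transducer phosphorylated by the type I receptor, was lower in differentiated cells than in NSPs. Its levels were 83.0, 55.6 and 53.9 CPM in NSPs, with replicate 1 high, 45.3, 41.1 and 37.7 CPM at 24 h, 37.8, 39.7 and 46.1 CPM at 72 h, and 48.4, 41.2 and 47.8 CPM at 1 week. No untreated differentiated library reached an NSP library. The log2 fold change from NSPs was -0.63 at 24 h (SE 0.16, adjusted p = 0.00249) and -0.64 at 72 h (SE 0.16, adjusted p = 0.00191), both kept under every setting. Without NSP replicate 1 they were -0.40 and -0.41. At 1 week it was -0.49 (SE 0.16, adjusted p = 0.0119), and without NSP replicate 1 it was -0.26 (adjusted p = 0.106).

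With TNF, Smad2 had 41.6, 53.8 and 47.3 CPM at 24 h and 44.2, 50.4 and 43.7 CPM at 72 h, overlapping the untreated cells. The log2 fold change for TNF was 0.20 at 24 h (SE 0.16, interval -0.13 to 0.53, adjusted p = 0.660) and 0.16 at 72 h (SE 0.16, interval -0.16 to 0.49, adjusted p = 0.546). Against NSPs it was -0.43 at 24 h with TNF (SE 0.16, adjusted p = 0.0251) and -0.47 at 72 h with TNF (SE 0.16, adjusted p = 0.0128). Without NSP replicate 1 these were -0.20 (adjusted p = 0.206) and -0.25 (adjusted p = 0.117), and the first call was also lost without 24 h TNF replicate 1 (0.0714) or 3 (0.0556). In fits of only the groups compared neither was called (adjusted p = 0.113 and 0.0561).

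Smad3 (ENSMUSG00000032402, chr9:63646767-63757994, minus strand), the partner transducer of Smad2, was higher with TNF at both times. At 24 h the untreated replicates had 50.5, 49.9 and 50.5 CPM, and those with TNF had 83.5, 83.1 and 82.9 CPM. At 72 h the untreated replicates had 64.6, 66.9 and 66.3 CPM, and those with TNF had 95.8, 101.7 and 108.9 CPM. The groups did not overlap at either time, and the spread within each group was small beside the difference. TNF raised Smad3 1.65-fold at 24 h (log2 fold change 0.73, SE 0.11, adjusted p = 7.47e-04) and 1.55-fold at 72 h (0.63, SE 0.11, adjusted p = 0.00104). Both calls were kept under every setting, and replicate 1, which stood apart in both TNF groups, was within 1 CPM of its replicates at 24 h. The effects differed between the times by -0.09 (SE 0.16, interval -0.42 to 0.24, adjusted p = 0.855).

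Without TNF, Smad3 rose late. In NSPs it had 66.8, 48.5 and 50.8 CPM, with replicate 1 high, and at 1 week 87.1, 84.1 and 87.2 CPM, more than in any other untreated library. The rise from NSPs to 1 week was 0.64 (SE 0.11, adjusted p = 8.27e-05), kept under every setting. Between 24 h and 72 h it rose by 0.39 (SE 0.11, adjusted p = 0.0153), a call lost without 72 h replicate 2 (adjusted p = 0.0533), without a filter on low counts (0.0702) and in the replicate block with 72 h replicate 3 unpaired (0.0645). Then, by 1 week, it rose by 0.39 (SE 0.11, adjusted p = 0.0434), a call lost on leaving out any replicate of either group or 24 h TNF replicate 3 (adjusted p from 0.0535 to 0.129) and with the replicate number as a block (0.0629). It was also lost without a filter on low counts (adjusted p = 0.117), with at least 5 counts in total (0.0694) and with 72 h replicate 3 unpaired in the block (0.162). The changes from NSPs at 24 h (-0.14, SE 0.11, adjusted p = 0.313) and at 72 h (0.25, SE 0.11, adjusted p = 0.0632) were not called. The second was called without NSP replicate 1 (adjusted p = 0.00128), 24 h TNF replicate 1 (0.0495) or 72 h TNF replicate 1 (0.0251), and where every library had to hold 10 counts (0.00482).

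Against NSPs, Smad3 was higher with TNF by 0.59 at 24 h (SE 0.11, adjusted p = 2.59e-04) and by 0.88 at 72 h (SE 0.11, adjusted p = 2.30e-06). From 24 h to 72 h with TNF the change was 0.30 (SE 0.11, adjusted p = 0.0881), and it was called without NSP replicate 1 (adjusted p = 0.0184), 72 h replicate 1 (0.0478) or 72 h TNF replicate 1 (0.0402), and where every library had to hold 10 counts (0.0257).

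Smad7 (ENSMUSG00000025880, chr18:75367529-75395935, plus strand), the inhibitory Smad that the pathway itself induces, was highest at 24 h without TNF. Its levels were 2.86, 3.30 and 4.44 CPM in NSPs, 12.7, 12.4 and 16.8 CPM at 24 h, 5.37, 5.46 and 6.00 CPM at 72 h, and 6.40, 6.36 and 5.42 CPM at 1 week. The 24 h libraries lay above all others without TNF. The rise to 24 h was 3.94-fold (log2 fold change 1.98, SE 0.28, adjusted p = 1.62e-05), and the fall from 24 h to 72 h was 1.31 on the log2 scale (SE 0.28, adjusted p = 0.00167), both kept under every setting. At 72 h the change from NSPs was 0.67 (SE 0.29, adjusted p = 0.0568), which was called with the replicate number as a block (adjusted p = 0.0393), not called in a block that left 72 h replicate 3 unpaired because its column carries the number 4 (0.0521), and called without 24 h TNF replicate 1 (0.00795), 24 h TNF replicate 3 (0.0363) or NSP replicate 3 (0.0343). It was also called without a filter on low counts (adjusted p = 0.0468), with at least 10 counts in every library (0.0296) and in a fit of only the groups compared (0.0367). At 1 week Smad7 was 0.78 above NSPs (SE 0.29, adjusted p = 0.0252), a call lost without NSP replicate 1 or 2, or 1 week replicate 1 or 2 (adjusted p from 0.0628 to 0.0873).

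With TNF, Smad7 had 4.28, 9.84 and 12.6 CPM at 24 h, with replicate 1 the lowest, and 4.34, 3.89 and 4.51 CPM at 72 h. Only the groups of 72 h did not overlap, all 3 libraries with TNF lying below the untreated ones. Neither difference was called: the log2 fold change for TNF was -0.65 at 24 h (SE 0.27, interval -1.21 to -0.08, adjusted p = 0.265) and -0.40 at 72 h (SE 0.28, interval -1.0 to 0.19, adjusted p = 0.397). Without 24 h TNF replicate 1 the value at 24 h was -0.33. Against NSPs Smad7 was higher at 24 h with TNF, by 1.33 (SE 0.28, adjusted p = 7.25e-04), and not called at 72 h with TNF (0.26, SE 0.29, adjusted p = 0.444). Between 24 h and 72 h with TNF it fell by 1.07 on the log2 scale (SE 0.28, adjusted p = 0.0166), a call lost without 24 h TNF replicate 2 (adjusted p = 0.0811), 24 h TNF replicate 3 (0.137) or 72 h TNF replicate 2 (0.0715), and in a fit of only the groups compared (0.129).

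Tgfbi (ENSMUSG00000035493, chr13:56609523-56639562, plus strand), an extracellular matrix protein named for its induction by TGF-β, had 75 counts in all libraries together. The counts were 0, 11 and 6 in NSPs, 6, 7 and 2 at 24 h, 2, 6 and 6 at 72 h, and 7, 2 and 3 at 1 week. With TNF they were 8, 2 and 4 at 24 h and 2, 0 and 1 at 72 h. In CPM, the libraries of 72 h with TNF were the lowest as a group and lay below all 3 untreated libraries of 72 h. Replicate 1 had 2 counts in both groups, at 0.113 CPM with TNF and 0.151 CPM without it. The difference between the groups did not pass the test at this depth. With at least 5 counts in total the log2 fold change for TNF at 72 h was -2.16 (SE 0.97, adjusted p = 0.224).

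**Figure D3:**
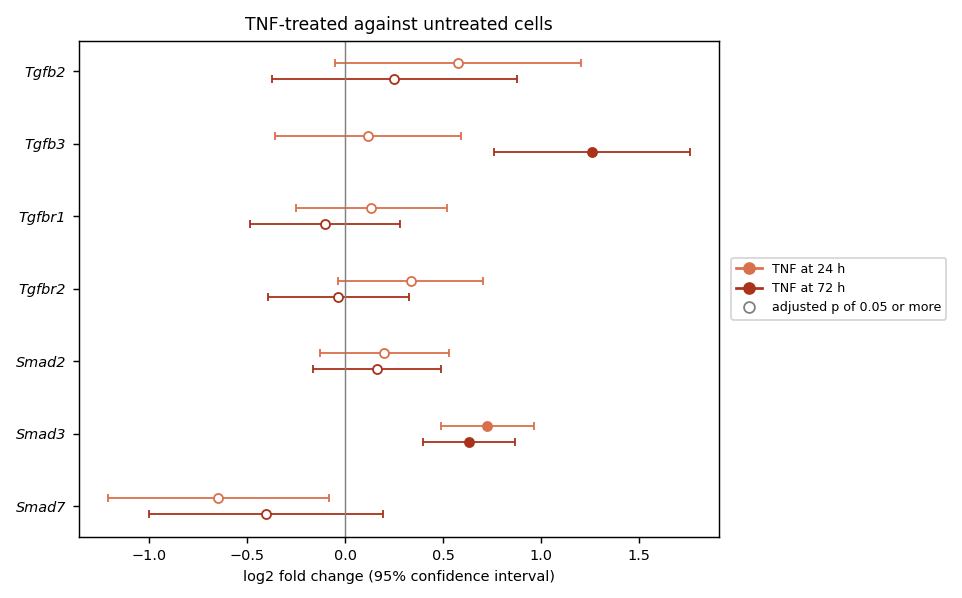
Log2 fold change of the 7 tested genes with TNF against untreated cells (horizontal axis), at 24 h and at 72 h. Points are estimates of edgeR's fit from 3 replicates a group, lines are 95% confidence intervals, and open points have an adjusted p of 0.05 or more. Smad3 has filled points at both times, at 0.73 and 0.63, and Tgfb3 at 72 h, at 1.26.

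The TNF effects at 24 h and 72 h rest on separate treated and untreated libraries, and the difference between them was tested directly. None of the 7 genes passed edgeR's test of this interaction, beside 0.135% of all tested genes with a larger and 0.324% with a smaller effect at 72 h. DESeq2 called none of them either, and Tgfb3 alone had an unadjusted p under 0.05. The smallest adjusted p with DESeq2 was 0.0696, for Tgfb3. Tgfb3 was called only in the fit without a filter on low counts (adjusted p = 0.00619). Of 6 genes of the TNF response, 4 of 5 tested were higher with TNF at each time, beside 2.18% of all tested genes at 24 h and 4.35% at 72 h. The other tested gene, Sod2, was not called, with means of 97.5 CPM without and 78.9 CPM with TNF at 24 h and of 96.7 and 77.6 CPM at 72 h. The 6 genes summed to 289 to 313 CPM at 24 h with TNF against 124 to 135 CPM without it.

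Another 39 genes of the pathway that passed the filter, in 5 lists by role, were read from the same fit. Against NSPs at 24 h, 16 of the 39 were higher and 11 lower, beside 27.2% and 25.5% of all tested genes. Of the 12 genes that hold the ligand latent or release it, 3 of the 11 tested were higher, near the 27.2% of all genes, 4 were lower, 4 were not called and Itgb6 was below the filter. Thbs1, thrombospondin, an activator of latent TGF-β, was at 4.38 ± 0.805 CPM in NSPs and 189 ± 7.41 CPM at 24 h (log2 fold change 5.44, SE 0.54, adjusted p = 2.00e-07), and at 387 ± 38.9 CPM at 72 h and 744 ± 24.4 CPM at 1 week. Its changes from 24 h to 72 h (1.03, adjusted p = 0.0910) and from 72 h to 1 week (0.94, adjusted p = 0.231) were not called. Itgav, the integrin alpha V chain, was at 549 ± 48.4 CPM in NSPs and 263 ± 12.7 CPM at 24 h (-1.06, SE 0.12, adjusted p = 7.53e-07). Lrrc32, which holds latent TGF-β at the cell surface, fell to 0.254 ± 0.167 CPM (-4.15, SE 0.44, adjusted p = 4.18e-07). The 11 tested genes had a median log2 fold change of 0.48, beside 0.06 for all genes tested.

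Of 6 accessory receptors, 4 were higher at 24 h than in NSPs, beside 27.2% of all tested genes, Tgfbrap1 was not called and Eng was below the filter. Tgfbr3, betaglycan, a co-receptor that presents the ligand, stood at 6.58 ± 1.33 CPM in NSPs and 19.7 ± 3.44 CPM at 24 h (1.58, SE 0.23, adjusted p = 2.10e-05), and went on to 83.8 ± 8.69 CPM at 72 h and 148 ± 14.3 CPM at 1 week. Bambi, a pseudoreceptor that dampens the signal, rose to 14.1 ± 2.56 CPM (1.88, SE 0.30, adjusted p = 5.60e-05). The call of Cd109, a co-receptor that inhibits signaling (0.58, adjusted p = 0.0497), was lost on leaving out any of 14 libraries (adjusted p from 0.0508 to 0.125). The median of the 5 tested genes was 1.58.

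Of 5 other Smads, 2 were higher at 24 h than in NSPs (27.2% of all tested genes), 1 was lower (25.5%) and 2 were not called, with a median of 0.02. Smad6, an inhibitory Smad, was at 1.33 ± 0.619 CPM in NSPs and 30.6 ± 1.63 CPM at 24 h (4.5, SE 0.43, adjusted p = 1.21e-07). Smad9, a transducer of the BMP branch, was at 2.54 ± 0.207 CPM and 34.2 ± 3.86 CPM (3.75, SE 0.20, adjusted p = 1.87e-10). Smad5, of the same branch, was lower (-0.74, SE 0.10, adjusted p = 7.03e-06), and Smad4, the common partner, had 105 ± 0.654 CPM in NSPs and 106 ± 4.25 CPM at 24 h (0.02, SE 0.09, adjusted p = 0.833).

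Of 8 negative regulators, 1 was higher at 24 h than in NSPs (27.2% of all tested genes), 4 were lower (25.5%) and 3 were not called, with a median of -0.30. The corepressor Ski rose to 207 ± 38.5 CPM from 74.8 ± 7.87 CPM (1.47, SE 0.17, adjusted p = 1.13e-06). Another corepressor, Tgif2, fell to 6.76 ± 0.339 CPM from 14.2 ± 0.693 CPM (-1.07, SE 0.19, adjusted p = 1.48e-04). Of the 10 further target genes that passed the filter, 6 were higher (27.2% of all tested genes), 2 were lower (25.5%) and 2 were not called, with a median of 1.94, and Col1a1, Col1a2 and Bgn were among those below it. Fn1, fibronectin, rose to 789 ± 184 CPM from 52.0 ± 16.3 CPM (3.92, SE 0.38, adjusted p = 1.46e-07). Acta2, smooth muscle actin, rose to 439 ± 48.4 CPM from 5.83 ± 3.91 CPM (6.25, SE 0.65, adjusted p = 3.53e-07). Ccn2, a matricellular protein, had 0 counts in every NSP library and 193 counts in the 24 h libraries together, at least 76.4-fold more relative to library size, taking 3 counts over the NSP group as the limit that a count of 0 allows, for counting error only. Among these 2 lists, the calls of Cdkn2b, Col4a1 and Ppm1a were lost on leaving out some libraries of NSPs or 24 h (adjusted p from 0.0501 to 0.119).

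At 72 h, against the same NSP libraries, 15 of the 39 genes were higher and 13 were lower, beside 28.1% and 27.2% of all tested genes. Between 24 h and 72 h, 5 of the 10 tested target genes were lower, beside 12.6% of all tested genes, 1 was higher, beside 12.2%, and 4 were not called, with a median of -1.39 beside -0.01 for all genes. Tnc, tenascin C, fell to 90.6 ± 17.8 CPM from 628 ± 32.9 CPM (-2.79, SE 0.45, adjusted p = 1.75e-04), and Vcan, versican, to 15.5 ± 1.08 CPM from 83.1 ± 9.72 CPM (-2.42, SE 0.22, adjusted p = 3.75e-07). In this interval 2 latency genes, 1 accessory receptor, 2 other Smads and 2 negative regulators were also lower, and 1 accessory receptor and 1 negative regulator were higher. Over the 5 lists 12 genes were lower and 3 higher. Of these 15 calls, 7 were lost on leaving out some library, those of Cdkn2b, Col4a1, Ski, Smad6, Smad9, Tagln and Tgif1 (adjusted p from 0.0501 to 0.180). Calls were also gained, that of Thbs1 without 72 h TNF replicate 1 (1.05, adjusted p = 0.00261). Without replicate 1 of both TNF groups Thbs1, Cd109 and Cdkn1a were called higher and Acta2 and Ccn2 lower. Between 72 h and 1 week 4 of the 39 genes were higher, beside 2.68% of all tested genes, Itgav (0.53, SE 0.12, adjusted p = 0.00813), Ltbp2, Tgfbr3 and Cdkn1a, and 3 were lower, beside 3.96%, Fbn1, Smad9 and Col4a1. The calls of Ltbp2 and Tgfbr3 in this interval were lost on leaving out some library (adjusted p from 0.0504 to 0.106). Pmepa1, Skil and Tagln were called higher without 24 h TNF replicate 1 (adjusted p from 0.0231 to 0.0358). Without 72 h TNF replicate 1 Pmepa1, Tagln and Thbs1 were called higher (adjusted p from 0.0156 to 0.0495). Without replicate 1 of both TNF groups Bambi, Pmepa1, Skil, Tagln and Thbs1 were called higher and Cd109 lower.

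**Figure D4:**
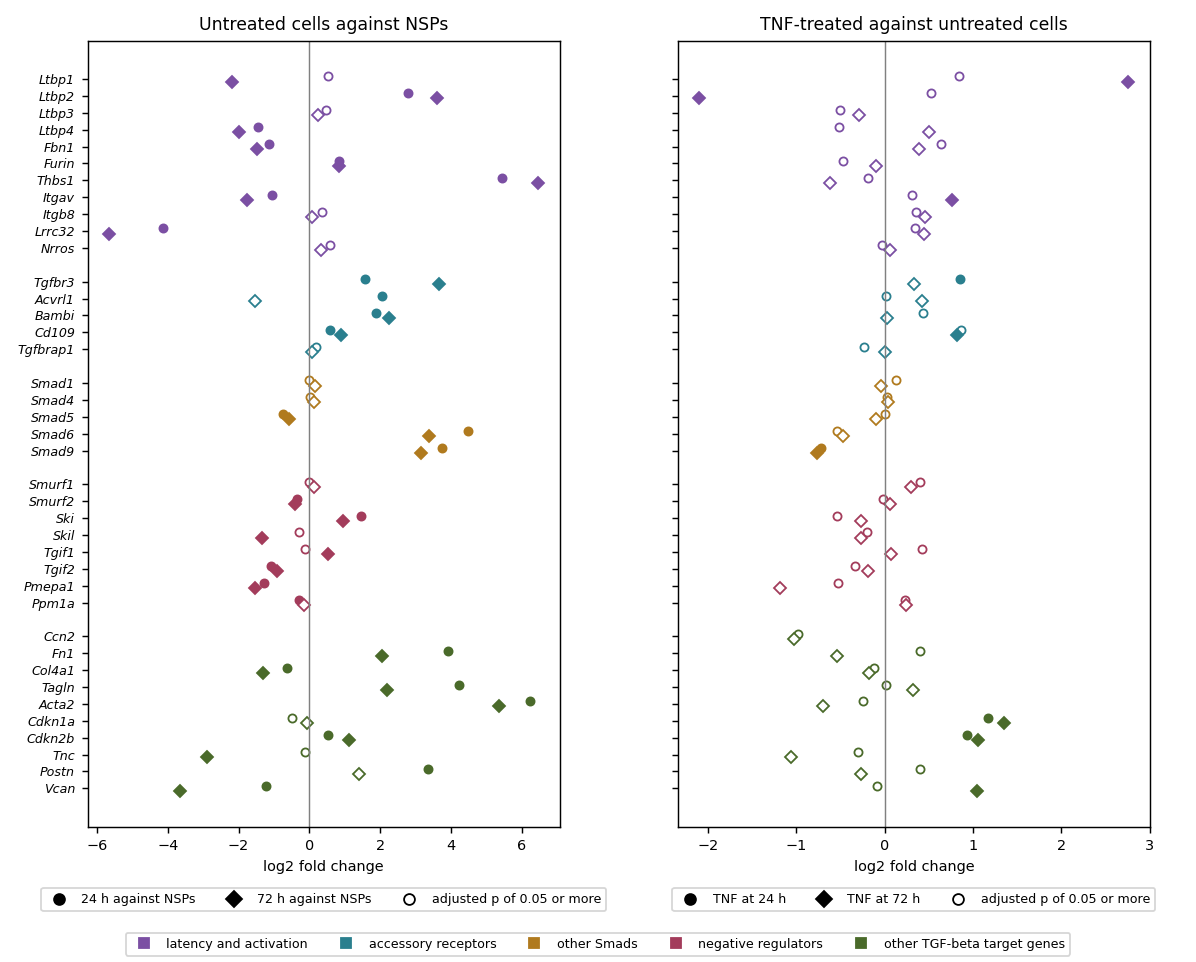
Log2 fold change (horizontal axes, with different ranges) of the 39 tested genes of the 5 pathway lists, at 24 h and 72 h against NSPs on the left and with TNF against untreated cells on the right. Circles are 24 h, diamonds 72 h, filled symbols have an adjusted p under 0.05, and colors mark the lists. Ccn2 is left out on the left because every NSP library had 0 counts of it. Thbs1 and Acta2 lie above 5 at 24 h against NSPs, and Ltbp1 is at 2.76 with TNF at 72 h, or 1.47 without 72 h TNF replicate 1.

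With TNF at 24 h, 3 of the 39 list genes were higher than in untreated cells, beside 2.18% of all tested genes, and 1 was lower, beside 1.32%. Of these, 1 accessory receptor and 2 target genes were higher and 1 other Smad was lower. No gene of the latency list or the negative regulators was called by edgeR. In each of these 2 lists 3 genes had an unadjusted p under 0.05, beside 2761 of all 20067 tested genes. Tgfbr3 had 17.7, 17.8 and 23.7 CPM without TNF and 52.9, 27.6 and 26.2 CPM with it, replicate 1 being the highest (0.85, SE 0.22, adjusted p = 0.0341). Cdkn1a, a cell cycle inhibitor, had 55.5, 55.2 and 74.6 CPM without TNF and 192, 103 and 123 CPM with it (1.17, SE 0.25, adjusted p = 0.00979). Smad9 had 35.8, 29.9 and 37.1 CPM without TNF and 16.8, 20.9 and 24.8 CPM with it (-0.72, SE 0.17, adjusted p = 0.0258). Cdkn2b, also a cell cycle inhibitor, was higher (0.93, SE 0.20, adjusted p = 0.0102). Each of these 4 calls was lost without 24 h TNF replicate 1, with adjusted p of 0.268 for Tgfbr3 (log2 fold change 0.43), 0.0692 for Cdkn1a, 0.0701 for Cdkn2b (0.62) and 0.112 for Smad9. Leaving out an untreated library of 24 h also ended calls, with replicate 1 those of Tgfbr3 (0.169), Cdkn1a (0.0693) and Smad9 (0.0942), with replicate 2 those of Tgfbr3 (0.164), Cdkn1a (0.0689) and Cdkn2b (0.0584), and with replicate 3 those of Tgfbr3 (0.0507), Cdkn2b (0.0517) and Smad9 (0.108). The call of Smad9 was lost without 24 h TNF replicate 2 as well (0.0648). In turn, Cd109, Ltbp1, Ski and Smurf1 were called in some fits that left out a library.

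At 72 h, 6 of the 39 genes were higher with TNF, beside 4.35% of all tested genes, namely 2 latency genes, 1 accessory receptor and 3 target genes. A latency gene and 1 other Smad were lower, beside 5.21%. No negative regulator was called, with 3 at an unadjusted p under 0.05, beside 5057 of all 20067 tested genes. Itgav had 169, 162 and 155 CPM without TNF and 311, 274 and 242 CPM with it, with no overlap (0.77, SE 0.12, adjusted p = 2.65e-04). Ltbp1, a latent TGF-β binding protein, had 1.89, 1.78 and 1.54 CPM without TNF and 25.6, 4.70 and 4.88 CPM with it, replicate 1 being far above the others (2.76, SE 0.51, adjusted p = 0.00140), and without that library the change was 1.47 (adjusted p = 0.00197). Cdkn1a (1.35, SE 0.25, adjusted p = 0.00134), Cdkn2b (1.05, SE 0.19, adjusted p = 0.00131) and Vcan (1.04, SE 0.21, adjusted p = 0.00327) were higher, and their calls, like those of Itgav and Ltbp1, were kept on leaving out any library, although Vcan was at 0.67 (adjusted p = 0.0243) without 72 h TNF replicate 1. Smad9 was lower again, with 21.3, 25.4 and 21.1 CPM without TNF and 16.1, 12.4 and 11.3 CPM with it (-0.77, SE 0.18, adjusted p = 0.00860), a call lost without 72 h replicate 2 (adjusted p = 0.0598). Cd109 was higher (0.82, SE 0.24, adjusted p = 0.0388), a call lost without 72 h TNF replicate 1 (0.45, adjusted p = 0.254), any untreated 72 h replicate or 1 week replicate 1 (0.0505 to 0.101). Ltbp2, another binding protein of this family, was at 1.03 ± 0.0360 CPM without TNF and 0.231 ± 0.143 CPM with it (-2.10, SE 0.62, adjusted p = 0.0399), a call lost on leaving out any of 9 libraries (adjusted p from 0.0501 to 0.124). Itgb8, Pmepa1 and Tnc were called in some fits that left out a library. No list gene was called by edgeR for the interaction of TNF and time. In edgeR's test 5 had an unadjusted p under 0.05, Ltbp1, Ltbp2, Ltbp4, Itgav and Vcan, beside 2018 of all 20067 tested genes. Without replicate 1 of both TNF groups, Ltbp2 (-3.70, adjusted p = 0.0383) and Tnc (-0.91, adjusted p = 0.0353) were called for it.

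Across the 18 libraries, the genes whose log2 CPM most resembled that of each of 5 tested members were named as a description. They share libraries, depth and conditions with the member. For Tgfb2 these were Dpyd (Pearson r = 0.969) and Fbln7 (0.956), for Tgfb3 Cdh22 (0.922) and Plcb1 (0.912), and for Tgfbr1 Ska2 (0.937) and Gt(ROSA)26Sor (0.920). For Tgfbr2 they were Eno4 and Tex52 (both 0.965), and for Smad3 Slf2 (0.951) and Nsmaf (0.950). For Tgfb1 and Tgfbi no gene with a mean of at least 1 CPM went beyond 0.775 (Fbxw4) and 0.811 (Cst3), at counts too low for a pattern.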

How the data were processed

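RNA was extracted with TRIzol, and stranded total RNA libraries were made after removal of ribosomal RNA. The paper's methods report RNA quality numbers that span a wide range, including low values, and do not give them by library. Whether RNA quality plays a part in the levels or in the libraries that stood apart was not tested. Per the labels, the authors used FastQC, Trim Galore, STAR, SAMtools and featureCounts with the mm10 genome to make the deposited table of raw read counts per gene, and versions are not given in the sources used here. All 18 columns were used, with totals from 12509693 to 22549627 counts. Genes were tested with edgeR 4.0.16 (R 4.3.3) by its quasi-likelihood test, with TMM scaling, filterByExpr, 1 mean per group over all 18 libraries and Benjamini-Hochberg adjustment over 20067 genes. RPKM used the length of the union of exons in GENCODE M21. DESeq2 1.42.0, other filters and scaling, fits of only the groups compared, a replicate block and leaving out each library were alternatives. The scripts were tested on simulated data.

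The genes, named by a rule that uses no measured value, and the pathway lists were chosen with earlier results of these data known. Named from the lists were up to 4 genes each with the smallest adjusted p, and the genes named for the later intervals were chosen after their values were seen. The column mapped to replicate 3 of 72 h carries the number 4 in its name. Replicate numbers paired the samples only for 72 h with TNF against 24 h with TNF, where the deviations of same-numbered libraries from their group means correlated with r of 0.291, 0.255 and 0.266. No replicates were duplicates of 1 library. An item of the target gene list is not reported here.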

Additional observations from a re-analysis of the deposited data

How the results depend on the processing

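Of 39 called member results, 23 kept their call and direction in all 27 alternative settings, 16 lost it on leaving out at least 1 library, and 0 reversed. Among them, TNF raised Smad3 at 24 h by 0.70 to 0.73 and at 72 h by 0.58 to 0.68 on the log2 scale, and Tgfb3 at 72 h by 1.20 to 1.32, on leaving out any library. The log2 values that changed sign were all of uncalled results. Without 1 library, these ranged from -0.22 to 0.019 for Smad3 at 24 h against NSPs, and between 72 h and 24 h from -0.096 to 0.076 for Smad2. They ranged from -0.013 to 0.089 for Tgfbr1 between 1 week and 72 h. Between 72 h with TNF and 24 h with TNF they ranged from -0.51 to 0.42 for Tgfb2, from -0.14 to 0.30 for Tgfbr1 and from -0.091 to 0.089 for Smad2. For TNF at 24 h the range was -0.14 to 0.38 for Tgfb3, and at 72 h it was -0.14 to 0.43 for Tgfb2, -0.29 to 0.15 for Tgfbr1 and -0.14 to 0.15 for Tgfbr2. For the difference between the TNF effects at 72 h and 24 h it was -0.71 to 0.23 for Tgfb2, -0.41 to 0.026 for Tgfbr1, -0.095 to 0.084 for Smad2 and -0.063 to 0.58 for Smad7. Without a filter on low counts, Smad2 between 72 h and 24 h was at 0.0050. With at least 10 counts in every library, Smad2 was at 0.0083 between the TNF groups and at 0.021 for the difference of TNF effects, and Tgfbr2 at 0.0039 for TNF at 72 h. Leaving out replicate 1 of both TNF groups, an alternative chosen after seeing the data, gave 0.0093 for Smad2 between 72 h and 24 h, 0.025 for Tgfb2 between the TNF groups, -0.14 for Tgfb2, 0.15 for Tgfbr1 and 0.15 for Tgfbr2 for TNF at 72 h, and -0.092 for Smad7 for the difference of TNF effects. In it, Tgfb2 and Tgfbr2 at 24 h against NSPs (adjusted p = 0.00366 and 0.0400), Smad3 and Smad7 at 72 h against NSPs (0.0251 and 0.00652) and Smad3 and Tgfb3 between the TNF groups (0.0472 and 0.0107) were called, and Smad2 at 24 h with TNF (0.0910) and Tgfbr1 at 72 h with TNF (0.0587) against NSPs were not.

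The number of the 7 members called varied on leaving out 1 library, from 4 to 6 at 24 h, 2 to 7 at 72 h and 3 to 6 at 1 week against NSPs, from 5 to 7 at 24 h and 3 to 6 at 72 h with TNF against NSPs, from 1 to 2 between 1 week and 72 h, and from 0 to 3 between the TNF groups. Between 1 week and 72 h 1 member in place of 2 was called without a filter, with at least 5 counts in total and with either replicate block. Between the TNF groups 0 members were called in a fit of only these groups, and 4 without their replicates 1 or at an unadjusted p under 0.05. At an unadjusted p under 0.05, 2 members were called for TNF at 24 h and 1 for the difference of TNF effects, and without a filter 1 for the latter. Counts over all genes ranged, on leaving out 1 library, from 626 to 1816 between 1 week and 72 h, from 1237 to 3793 between the TNF groups, from 363 to 936 for TNF at 24 h, from 982 to 2849 for TNF at 72 h and from 25 to 159 for the difference of TNF effects. With only the groups compared these counts were 2001, 828, 1277 for TNF at 72 h and 38 for the difference. Without a filter they were 2032 between 1 week and 72 h, 1374 for TNF at 24 h and 554 for the difference. At an unadjusted p under 0.05 they were 3872, 5398, 2761 for TNF at 24 h, 5057 for TNF at 72 h and 2018. Without the TNF replicates 1 they were 2201 between 1 week and 72 h and 151 for the difference, for which DESeq2 gave 236 and at least 10 counts in every library gave 56. Causes of these changes were not tested.

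With the replicate number as a block, Smad3 between 1 week and 72 h (adjusted p = 0.0629) lost its call, Smad7 at 72 h against NSPs (adjusted p = 0.0393) gained it, and no other member call changed. Outside the TNF groups the samples shared only a number. In the block with 72 h replicate 3 unpaired, chosen after seeing the data, all genes called were 3286 between 72 h and 24 h, 617 between 1 week and 72 h, 986 for TNF at 72 h and 24 for the difference of TNF effects, where Smad2 was at 0.084. This block ended the calls of Tgfb3 at 72 h against NSPs (adjusted p = 0.0938), Tgfbr1 at 1 week against NSPs (0.0560), Smad3 between 72 h and 24 h (0.0645) and Smad3 between 1 week and 72 h (0.162), and Smad7 at 72 h against NSPs was not called (0.0521). Depth limits Tgfb1 and Tgfbi, with at most 25 counts in any library.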
